A study of Mus musculus with 71 samples.

Results

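Glycolysis splits glucose into pyruvate in the cytosol, and lactate dehydrogenase can then turn the pyruvate into lactate. Hexokinase traps glucose in the cell, phosphofructokinase is the committed and most tightly regulated step, and the later enzymes of the payoff phase make ATP. Mouse embryonic stem cells rely strongly on this route, and several of its genes are classic targets of the hypoxia-inducible factors. Read levels, T-to-C conversion rates and mRNA half-lives are described here for 10 glycolytic enzyme genes of the 21527 genes counted. They are enzymes of several steps of the pathway, picked by gene name: Hk2, Gpi1, Pfkl, Pfkp, Aldoa, Tpi1, Pgk1, Eno1, Pkm and Ldha.

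The cells were male mouse embryonic stem cells (mESC), and the assay was SLAM-seq, in which the uridine analogue 4-thiouridine (s4U) is built into new RNA and read as T-to-C conversions at 3′ ends. Cells took up 100 µM s4U for 24 h and were then chased with an excess of uridine for 0, 1, 1.5, 2.3, 3.5, 5.3, 8 or 12 h, while further cells received no s4U. All cells were given either STM2457, an inhibitor of the m6A methyltransferase Mettl3, at 20 µM in DMSO, or DMSO alone at 0.2%, and in labelled cells this began 6 h before the chase and lasted through it. The 18 groups held 4 libraries each, except 3 for STM2457 at 3.5 h, which made 71 libraries of 4539726 to 7368244 counted reads with a median of 5726508. The groups differed by no allele. The replicates of a group are independent biological replicates according to the methods of the study. In bulk RNA, fewer cells of a type and less RNA per cell cannot be told apart.

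The cells carried the markers of their label: Pou5f1, the core pluripotency factor, led the pluripotency list, whose 8 counted genes summed to between 918 and 1730 CPM in the single libraries. CPM, the read level used throughout, is the share of a gene in the counted reads of its library, as counts per megaread, after scaling by the trimmed mean of M-values (TMM). Markers of other cells had lower sums, of 1.18 to 12.8 CPM for primitive endoderm and 3.89 to 24.3 CPM for fibroblasts. Of the 6 fibroblast genes, Postn was the only 1 without a read, and Thy1 had most. The sums were 13.9 to 113 CPM for primed epiblast and mesoderm and 85.3 to 163 CPM for trophoblast. Most of the trophoblast sum came from 1 gene, Tfap2c, with a median of 100 CPM beside 125 CPM for the sum. The reads cover windows at the 3′ ends and are not scaled by length. The marker levels are therefore only a rough guide, and elsewhere levels are compared between libraries and not between genes.

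The promoters with most copies of the core letters of the hypoxia response element, ACGTG, are shown first because Ldha and Pgk1 were the 2 genes called lower at 12 h than at 0 h in control cells in the main fit. Pgk1 lost that call in 4 of 14 alternatives. With the GC slope of the library as a covariate, described below, Aldoa, Ldha and Pkm were called lower and Pgk1 was not. Whether the letters have a part in these falls was not tested. Each promoter is the stretch of 250 bases just before an annotated start in RefSeq, on GRCm38.p6, written 5′ to 3′ on the strand of the gene. Capitals mark ACGTG on either strand, so also CACGT, and a palindromic CACGTG counts on both strands. The Ldha promoter lies at chr7:46845554-46845803 on the plus strand with 5 matches, including 2 palindromes, the Pgk1 promoter at chrX:106186850-106187099 on the plus strand with 2 matches, and the Hk2 promoter at chr6:82774455-82774704 on the minus strand with 2 matches.
Ldha promoter: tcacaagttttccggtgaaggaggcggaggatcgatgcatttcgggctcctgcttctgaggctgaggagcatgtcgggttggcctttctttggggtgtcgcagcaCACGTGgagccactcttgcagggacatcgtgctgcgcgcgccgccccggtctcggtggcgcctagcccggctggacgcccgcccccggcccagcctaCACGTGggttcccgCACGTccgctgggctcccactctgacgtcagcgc
Pgk1 promoter: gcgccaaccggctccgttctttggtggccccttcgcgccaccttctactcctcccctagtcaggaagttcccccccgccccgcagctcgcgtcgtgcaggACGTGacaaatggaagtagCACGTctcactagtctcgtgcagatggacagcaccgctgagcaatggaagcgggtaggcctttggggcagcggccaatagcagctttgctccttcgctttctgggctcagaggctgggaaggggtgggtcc
Hk2 promoter: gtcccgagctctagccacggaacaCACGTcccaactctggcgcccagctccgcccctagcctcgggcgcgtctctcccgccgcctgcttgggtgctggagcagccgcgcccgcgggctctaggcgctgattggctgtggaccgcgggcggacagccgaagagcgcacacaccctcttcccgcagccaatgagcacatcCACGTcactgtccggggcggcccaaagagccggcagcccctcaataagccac
Of the 32851 promoters in the table, 16.6% held the letters and 6.81% held them at least 2 times. They were found in 6 of the 16 annotated promoters of the 10 genes, which belong to Hk2, Aldoa, Pgk1, Pkm and Ldha, so 5 of 10 genes against 18.5% of all 27025 genes. Promoters 2 and 3 of Aldoa overlap and hold the same match, which is counted in both. The share of genes takes any promoter of a gene, so it depends on how many promoters are annotated. A match describes these letters only, and their absence from the windows of Gpi1, Pfkl, Pfkp, Tpi1 and Eno1 says nothing about binding there.

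The genes lie on 7 chromosomes of GRCm38. Hk2 spans 6:82725025-82774454 and Tpi1 6:124810586-124814296, both on the minus strand, and Gpi1 7:34201330-34230336 and Aldoa 7:126795234-126800751 are also on the minus strand, while Ldha at 7:46841475-46855627 is on the plus strand. Pfkl lies at 10:77986947-78010083 and Pfkp at 13:6579768-6648777, both on the minus strand. Pgk1 at X:106187100-106203699 is the 1 member on the X chromosome, and it is on the plus strand, as are Eno1 at 4:150236721-150248879 and Pkm at 9:59656368-59679375.

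The libraries themselves did not vary at random, and this touches most of the genes. The main axis of spread among libraries of the same group carried 26.4% of that variance, and the weight of a gene on it followed the GC content of its transcript with a Spearman rho of 0.448 across 8095 genes, which are not independent replicates. Each library was therefore given a GC slope, the change of log2 read level for each 10 percentage points of transcript GC, measured on genes other than the 10 described. The slopes ran from −0.596 to 0.186. Control libraries stood lowest at 1 h, with a mean of −0.25, and at 5.3 h, with −0.21, and STM2457 libraries at 1 h, with −0.26. The treatments differed most at 1.5 h, with −0.13 in DMSO and 0.14 in STM2457, and at 5.3 h, with −0.21 and 0.01.

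Within groups, the levels of Pfkl, Aldoa, Gpi1 and Pkm were higher at higher slopes, with correlations of 0.85, 0.83, 0.79 and 0.75 over the 71 libraries, and those of Ldha and Pgk1 lower, with −0.80 and −0.72. Tpi1 at 0.48, Eno1 at 0.52, Hk2 at −0.42 and Pfkp at −0.24 followed it less closely. The genes thus moved in opposite blocks from library to library: Pfkl and Aldoa had a within-group correlation of 0.887 and Pfkl and Pkm of 0.884, against −0.652 for Gpi1 and Ldha. These correlations share libraries, depth and scaling and are given as a description. Because of this spread, results of the read counts are given below also with the slope as a covariate, and, for the mean over the chase, without the 1, 1.5 and 5.3 h libraries. Both were chosen after the data had been seen. What sets the slope of a library was not tested.

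**Figure D1:**
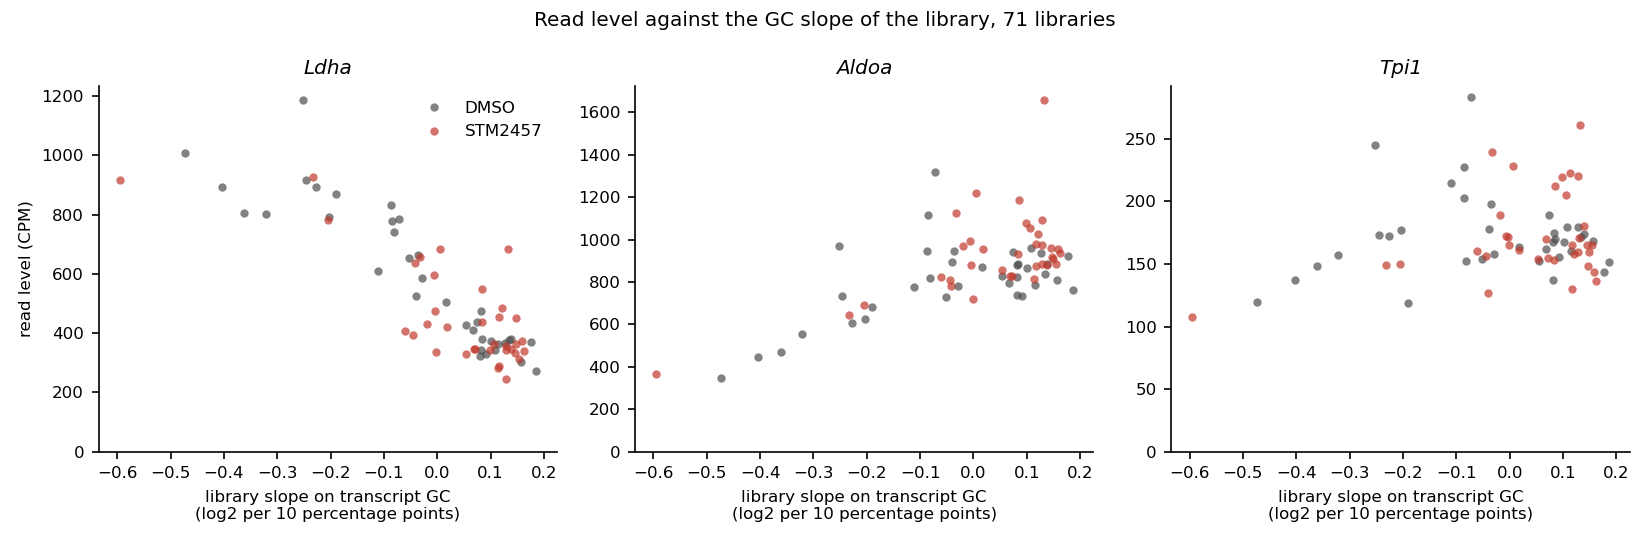
Read level in CPM (y axis) of Ldha, Aldoa and Tpi1 against the GC slope of the library, in log2 per 10 percentage points of transcript GC (x axis), one point for each of the 71 libraries, grey for DMSO and red for STM2457. The Ldha level falls and the Aldoa level rises along the slopes from −0.596 to 0.186, and Tpi1 follows the slope less closely.

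The share of multimapping reads, the deposited multimapping count over the read count, separated these genes sharply. Pgk1 had a mean share of 100.0% over the 71 libraries, so nearly every read of this gene also fits elsewhere in the genome, and Gapdh, which was not among the 10 genes, had 99.9%. Pkm stood at 37.7% ± 3.74 (SD, n = 71) with a range from 28.9% to 54.6%. Eno1 had 16.9% ± 8.58, Gpi1 13.5% ± 3.79, Aldoa 13.3% ± 5.80 and Tpi1 8.69% ± 2.11. Ldha had 2.21% ± 0.948, and Pfkp, Pfkl and Hk2 had 0.468%, 0.276% and 0.0795%. Over 10389 genes with at least 1000 reads in all, the median share was 0.292%, and 11.5% of them exceeded 5%, as did 6 of the 10 genes here.

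The treatments differed little in these shares: Pkm had 37.2% in DMSO and 38.2% in STM2457, and Aldoa 14.2% and 12.2%. Between groups they moved more, and the share of Aldoa reached 23.8% on average in DMSO at 1 h and 38.1% in its highest library. The last 250 bases of Eno1 matched 1 other annotated gene, a retrogene copy, over 247 bases at 100% identity, and that gene was not among those counted. Eno1 had few reads on its own window, 26 to 182 per library with a median of 64, so its values are uncertain in both respects. No other member matched another annotated gene at its 3′ end at 95% identity or more. Pgk1 had no match either, although nearly all of its reads also fit elsewhere. The search therefore misses places that share reads with these genes, and a lack of matches does not mean a lack of copies.

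At the entry of the pathway, Hk2, the hexokinase induced in growing cells, ranged from 19.9 to 69.3 CPM over the libraries with a median of 37.4. In control cells it stood at 43.7 ± 8.55 CPM (SD, n = 4) at 0 h and at 30.8 ± 8.01 CPM at 12 h, and in STM2457 at 42.9 ± 6.68 and 37.2 ± 5.35 CPM. The ranges of both time points overlapped in each treatment. Gpi1, the isomerase that makes fructose 6-phosphate, varied from 186 to 472 CPM, Pfkl, the liver-type phosphofructokinase subunit, from 47.7 to 193 CPM, and Pfkp, the platelet-type subunit, from 18.3 to 43.98 CPM. The lowest group means of Gpi1 and Pfkl were those of STM2457 at 1 h, with 280 and 85.4 CPM, where the GC slope was also lowest.

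Aldoa, the aldolase that cleaves the hexose into a pair of trioses, had its highest group mean in STM2457 cells without s4U, 1297 CPM, and its lowest in DMSO at 1 h, 589 CPM. Tpi1, which interconverts the trioses, was high without s4U, at 283, 227, 203 and 245 CPM in DMSO and 261, 212, 228 and 240 CPM in STM2457. After 24 h of s4U the same gene was at 173, 153, 164 and 158 CPM in DMSO and at 172, 126, 158 and 153 CPM in STM2457. Every labelled 0 h library lay below every unlabelled one of its treatment, and the share of all genes that separate in this way was not counted.

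Pgk1, the phosphoglycerate kinase that makes the first ATP of the payoff phase, stood at 319, 304, 241 and 250 CPM at 0 h in DMSO. At 12 h it was at 226, 197, 221 and 180 CPM, and the 2 groups did not overlap. The share of all genes without overlap between these times was not counted. Eno1, the enolase, was counted at 4.91 to 26.7 CPM. Pkm, which makes pyruvate, ranged from 618 to 2167 CPM, and its lowest group was DMSO at 5.3 h with 904 ± 339 CPM, where the values of 1304 and 1066 CPM in replicates 1 and 2 lay well above 618 and 628 CPM in replicates 3 and 4.

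Ldha, which reduces pyruvate to lactate, varied most clearly over the chase. In DMSO it was at 785, 831, 779 and 1187 CPM without s4U, at 916, 743, 504 and 587 CPM at 0 h, and at 379, 371, 377 and 274 CPM at 12 h. In STM2457 it was at 684, 548, 684 and 656 CPM without s4U, at 598, 636, 485 and 437 CPM at 0 h, and at 282, 291, 342 and 342 CPM at 12 h. In each treatment the 12 h libraries lay below all 0 h libraries, again with no share of all genes counted. The fall was not steady: DMSO libraries returned to 686 ± 139 CPM (SD, n = 4) at 5.3 h between 345 ± 22.9 at 3.5 h and 349 ± 35.4 at 8 h, at the time whose GC slope was low.

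**Figure D2:**
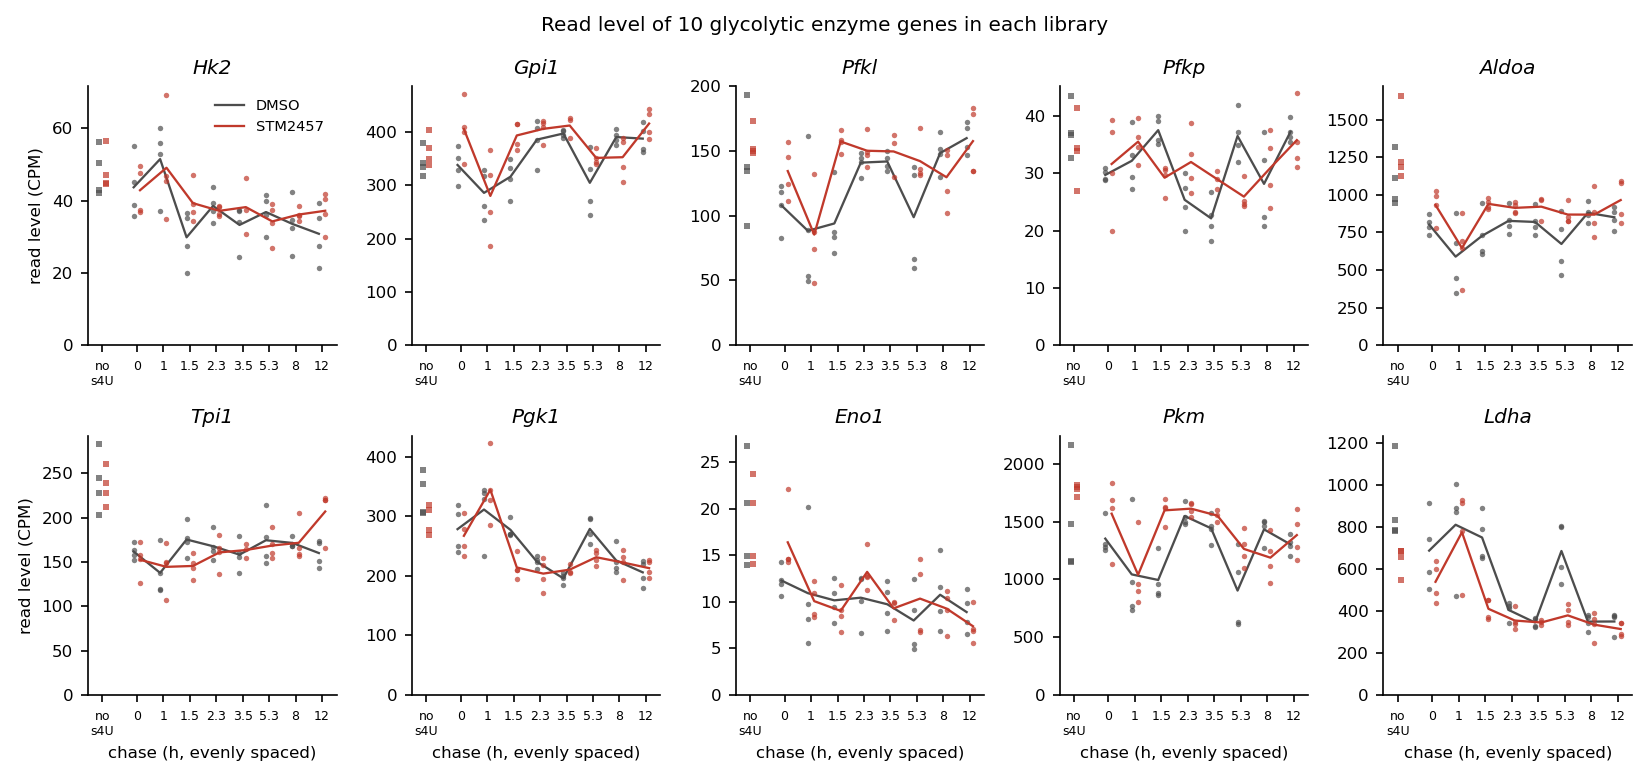
Read level in CPM (y axis) of each of the 10 genes without s4U and at each chase time in hours, evenly spaced (x axis), grey for DMSO and red for STM2457, with squares for single libraries without s4U, points for single labelled libraries and lines for group means. Ldha falls from 687 to 350 CPM in DMSO and from 539 to 314 CPM in STM2457 between 0 and 12 h, and Tpi1 is highest without s4U.

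The first comparison asks how inhibition of Mettl3 shifts these mRNA levels, on average over the 8 chase times. With a quasi-likelihood test in edgeR on all 12659 genes with enough reads, and genes called at an adjusted p under 0.01, Ldha was lower and Aldoa higher in STM2457, and the other 8 genes were not called. The test calls 26.5% of all genes, 1763 higher and 1594 lower, so 2 of 10 genes is no more than the background. The median log2 fold change of the 10 genes was 0.06, against −0.01 for all genes tested. Ldha changed by −0.32 ± 0.06 on the log2 scale (SE, adjusted p = 1.62e-05), and by −0.18 ± 0.04 (adjusted p = 8.4e-05) with the GC slope as a covariate. Without the 1, 1.5 and 5.3 h libraries its difference was −0.15 ± 0.08 (adjusted p = 0.15) and was no longer called.

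Aldoa rose by 0.20 ± 0.06 (adjusted p = 0.00916), but its difference was 0.06 (adjusted p = 0.169) with the covariate and 0.14 (adjusted p = 0.209) without those times, and it was called in only 7 of 16 alternatives. Pkm at 0.17 ± 0.06 (adjusted p = 0.0307), Gpi1 at 0.10 ± 0.04 (adjusted p = 0.0464) and Pfkl at 0.19 ± 0.08 (adjusted p = 0.0587) missed the threshold and came to 0.05, 0.02 and 0.02 with the covariate. Hk2 had 0.09 ± 0.07, Pfkp 0.02 ± 0.06, Tpi1 0.00 ± 0.04, Pgk1 −0.07 ± 0.04 and Eno1 0.04 ± 0.11. The fit with the covariate calls 27.2% of all genes, and of the 10 only Ldha. The fit without the 3 times calls 16.1% of all genes and none of the 10, of which 5 had an unadjusted p under 0.05 over all times.

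At single time points the treatments were compared separately. Of 90 tests, which are 10 genes in 9 conditions, 3 were called, against 3.23% of all tests in the 9 conditions. At 1.5 h, Ldha was at 664, 892, 652 and 792 CPM in DMSO and at 454, 362, 373 and 452 CPM in STM2457, with no overlap, and fell by 0.87 ± 0.17 on the log2 scale (adjusted p = 0.000199). At 5.3 h it was at 526, 611, 801 and 804 CPM in DMSO and at 432, 406, 331 and 347 CPM in STM2457, again without overlap (log2 fold change −0.85 ± 0.17, adjusted p = 0.000357). At the other chase times its differences ran from −0.35 at 0 h to 0.00 at 3.5 h, with −0.16 at 12 h, and none was called.

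Pkm at 1.5 h moved the other way, from 1269, 868, 965 and 881 CPM in DMSO to 1694, 1622, 1454 and 1625 CPM in STM2457, a rise of 0.68 ± 0.18 (adjusted p = 0.00549). This call held in 7 of 15 alternatives, and was lost with reads mapping to 1 place only (0.57, adjusted p = 0.0169) and without any 1 replicate other than DMSO replicate 1 and STM2457 replicate 3. With the GC slope as a covariate the Pkm difference was 0.19 (adjusted p = 0.433), that of Ldha at 1.5 h was −0.34 (adjusted p = 0.0609), and that of Ldha at 5.3 h was −0.42 ± 0.11 (adjusted p = 0.00915) and remained called. The same fit, which calls 3.58% of all tests, also called Tpi1, at −0.48 (adjusted p = 0.00532) at 1.5 h and at 0.40 (adjusted p = 0.00316) at 12 h. At 12 h Tpi1 was at 174, 143, 172 and 151 CPM in DMSO and at 222, 165, 220 and 220 CPM in STM2457, so that replicate 2 of STM2457 lay within the DMSO range.

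The separation of the libraries tells the same values without a model. At 1.5 h the treatments did not overlap for 6 genes, higher in STM2457 for Gpi1, Pfkl and Pkm and lower for Pfkp, Pgk1 and Ldha, and 22.7% of all genes did not overlap there. At 5.3 h they did not overlap for Pfkp, Pgk1 and Ldha, all lower in STM2457, against 16.1% of genes. At 3.5 h this held for Pfkp alone, higher in STM2457, against 15.7%. Eno1 was narrowly higher in STM2457 without overlap at 0 h, against 10.7% of genes, and Ldha lower without s4U, against 10.8%. No gene of the 10 was separated at 1, 2.3, 8 or 12 h, where 5.23%, 12.2%, 13.7% and 17.9% of all genes were. Pfkp thus had opposite signs at 3.5 h and 5.3 h.

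The next comparison is the change over the chase itself, from 0 h to 12 h, within each treatment. In DMSO 2 of the 10 genes were called, both lower, where 13% of all genes were called, and in STM2457 2 of 10, both lower, where 4.72% were. The median log2 fold change of the 10 genes was −0.04 in DMSO and −0.07 in STM2457, against 0.04 and 0.00 over all genes tested. Ldha fell by 0.97 ± 0.17 on the log2 scale in DMSO (adjusted p = 1.13e-05) and by 0.78 ± 0.17 in STM2457 (adjusted p = 0.00102). With the GC slope as a covariate it still fell, by 0.48 ± 0.11 (adjusted p = 0.000651) and by 0.62 ± 0.10 (adjusted p = 2.84e-06). Without replicate 1 or replicate 2 of STM2457, none of the 10 genes was called in that treatment, and Ldha stood at −0.68 (adjusted p = 0.035) and −0.65 (adjusted p = 0.0562).

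Pgk1 fell by 0.44 ± 0.11 in DMSO (adjusted p = 0.00214), and its difference was −0.19 (adjusted p = 0.141) with the covariate. The call was also lost with library totals and without DMSO replicate 1 or 2. Eno1 was at 14.6, 14.6, 14.3 and 22.1 CPM at 0 h in STM2457 and at 6.87, 5.58, 7.10 and 9.99 CPM at 12 h. These did not overlap, with no share of all genes counted for this. The gene fell by 1.15 ± 0.29 (adjusted p = 0.00568), or by 1.29 with the covariate (adjusted p = 0.000208), but was not called once any 1 replicate of STM2457 was left out (−1.18 to −1.09), on few reads and with a share of reads that fit another place. With reads mapping to 1 place only, Eno1 was at −1.06 (adjusted p = 0.0236) and no longer called, as with library totals, and Pgk1 had too few reads to test, while Ldha kept changes of −1.01 in DMSO and −0.76 in STM2457.

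The covariate also brought calls that the plain fit did not make. In DMSO, where it calls 12.5% of all genes, Aldoa stood at −0.41 (adjusted p = 0.00204) in place of 0.08 (adjusted p = 0.773), and Pkm at −0.51 (adjusted p = 0.000595) in place of −0.05. In STM2457, where it calls 7.91%, Tpi1 stood at 0.38 (adjusted p = 0.00616) in place of 0.44 (adjusted p = 0.0126). Tpi1 was also called higher there by a fit with the replicate number as a block and by DESeq2. The mean GC slope of the DMSO libraries was −0.08 at 0 h and 0.16 at 12 h, and that of the STM2457 libraries 0.04 and 0.11.

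Whether these changes differ between the treatments was tested by their interaction, which calls 1.11% of all genes in edgeR. None of the 10 genes was called by edgeR or DESeq2, and 1 of 10, Tpi1, had an unadjusted p under 0.05 in edgeR. Its change was larger in STM2457 by 0.46 ± 0.17 (adjusted p = 0.176), and by 0.59 with the covariate (adjusted p = 0.0094), in a fit that calls 2.12% of genes. The difference for Ldha was 0.19 ± 0.24 (adjusted p = 0.788), so that its fall was not shown to differ between the treatments.

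**Figure D3:**
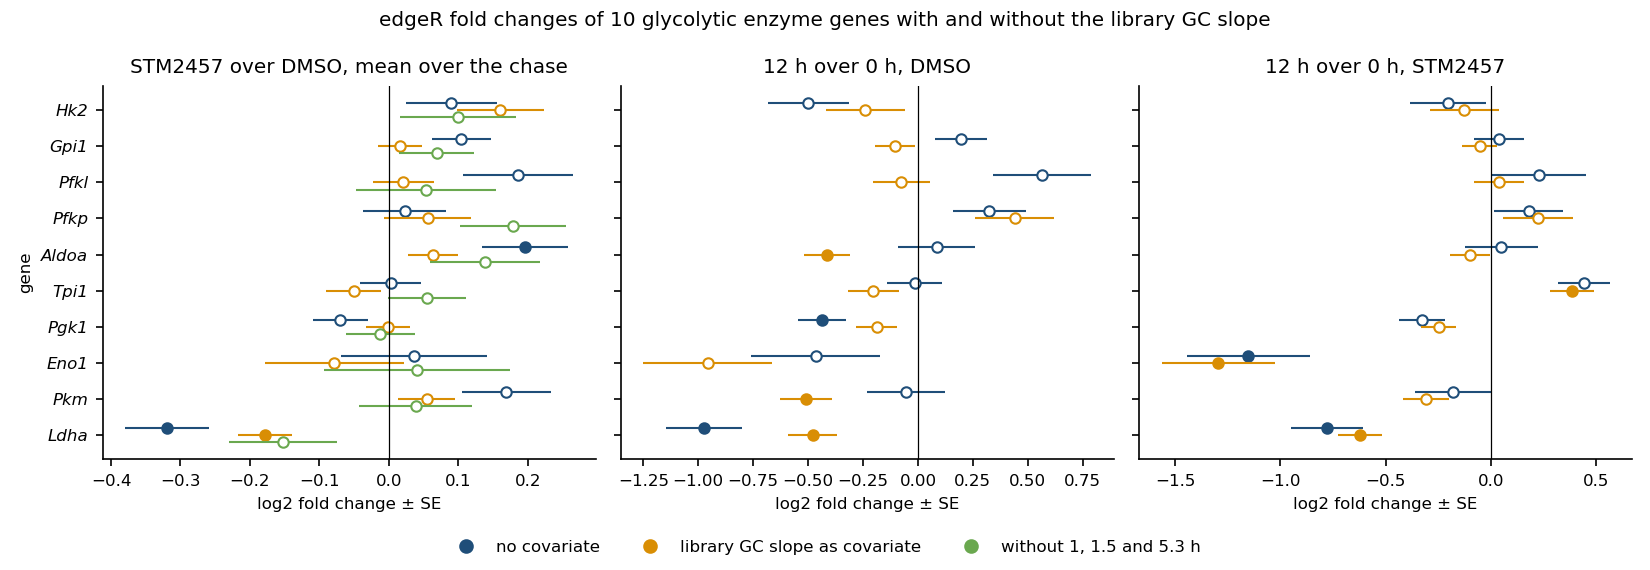
Log2 fold changes from edgeR (x axis, bars are SE) of the 10 genes (y axis) for STM2457 over DMSO as a mean over the chase, and for 12 h over 0 h in DMSO and in STM2457, without a covariate in blue, with the library GC slope as a covariate in orange and without the 1, 1.5 and 5.3 h libraries in green, filled where the adjusted p is under 0.01. Ldha lies below 0 in every fit shown, from −0.97 to −0.15, and Aldoa crosses 0 in DMSO between 0.08 and −0.41.

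Labelling itself can change expression, so the 0 h libraries were set against those without s4U. Tpi1 was the 1 gene of the 10 called in each treatment, by a fall of 0.57 ± 0.12 (adjusted p = 0.00468) in DMSO and of 0.62 ± 0.12 (adjusted p = 0.00131) in STM2457. The test calls 0.513% of all genes in DMSO and 0.521% in STM2457. The call of Tpi1 was lost in DMSO when any 1 of the 4 DMSO replicates was left out (−0.65 to −0.51) or only the groups compared were fitted (adjusted p = 0.0492), and in STM2457 without replicate 1 or replicate 2 of that treatment. With the covariate it calls 1.66% and 1.52%, and Aldoa was then called as well, at −0.51 (adjusted p = 0.000188) and −0.45 (adjusted p = 0.00119). For the other genes the differences ran from −0.64 for Eno1 to −0.02 for Gpi1 in DMSO, and from −0.48 for Aldoa to 0.15 for Gpi1 in STM2457, and none was called. Brachyury, a marker of primed epiblast and mesoderm named after its values had been seen, was also called lower with s4U in both treatments. It was called there with the covariate too. Whether this bears on Tpi1 was not tested.

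The conversion rate, the share of covered T positions read as C, follows the labelled RNA made before the chase. At 0 h the rates of the 10 genes other than Eno1 lay between 0.935% for Tpi1 in STM2457 and 1.66% for Hk2 in DMSO, with 1.30% and 1.28% for Aldoa in DMSO and STM2457 and 1.21% and 1.27% for Ldha. The overall rate of the libraries was 1.37% and 1.28% at 0 h and 0.0814% and 0.0829% without s4U. By 12 h the overall rate had fallen to 0.279% ± 0.0104 in DMSO (SD, n = 4) and to 0.223% ± 0.00599 in STM2457.

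Most of the 10 genes kept their label long. With the background of unlabelled libraries subtracted, Pgk1 held 38.5% of its 0 h rate at 12 h in DMSO, Pkm 38.1%, Aldoa 34.3%, Gpi1 30.8%, Tpi1 28.2% and Ldha 26.4%, against 19.6% for Pfkl and 7.71% for Pfkp. Hk2 lost its label fast: its rate was 0.165% ± 0.0871 in DMSO at 5.3 h and 0.0319% ± 0.0162 at 8 h, at the level of 0.0524% ± 0.0296 without s4U.

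**Figure D4:**
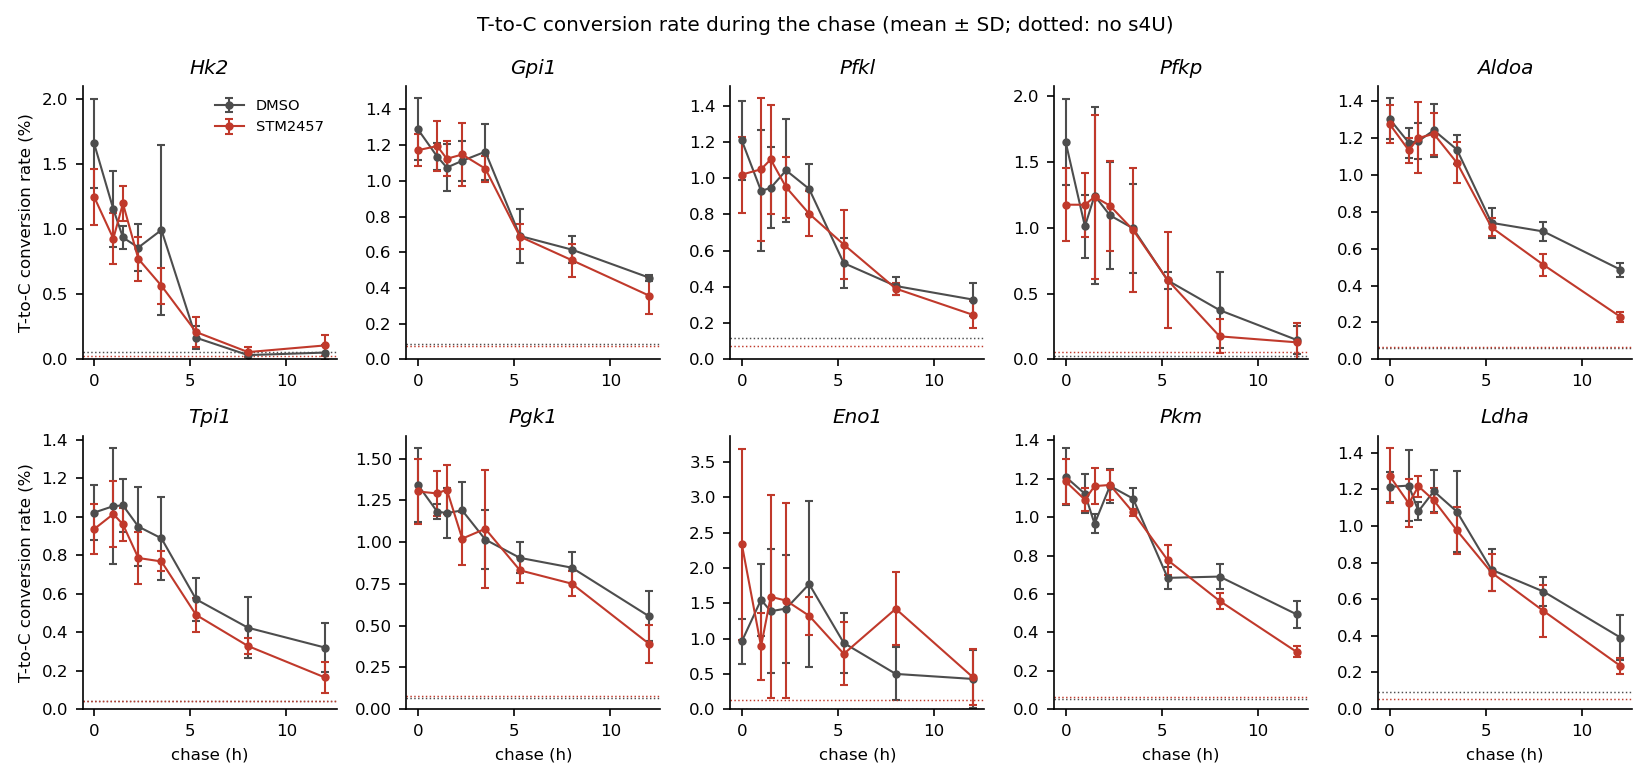
T-to-C conversion rate in percent (y axis, mean ± SD over 4 libraries, 3 for STM2457 at 3.5 h) of the 10 genes against the chase in hours (x axis), grey for DMSO and red for STM2457, with the mean without s4U dotted. At 12 h the rate of Aldoa is 0.486% in DMSO and 0.230% in STM2457. Hk2 reaches the unlabelled level by 8 h in DMSO, while in STM2457 it is at 0.106% at 12 h against 0.0285% without s4U. Eno1 scatters widely.

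Half-lives were fitted as an exponential decay of the background-subtracted rate set to 1 at 0 h, and both treatments had to pass 3 filters: more than 100 covered T positions on average, a half-life between 0.67 and 18 h, and residuals with a standard error no larger than 0.3. This kept 9 of the 10 genes and 7408 transcripts in all. Eno1 was lost, with a residual standard error of 0.531 in DMSO at 7.55 covered T positions per read and the lowest read counts of the 10. In DMSO the half-life was 2.24 h for Hk2, 3.56 h for Pfkp, 4.91 h for Pfkl, 7.25 h for Gpi1, 7.68 h for Tpi1, 8.29 h for Ldha, 8.48 h for Aldoa, 9.03 h for Pkm and 9.33 h for Pgk1. The median over all kept transcripts was 3.19 h, and 6 of the 9 lay at percentiles from 94.5 for Gpi1 to 97.6 for Pgk1, while Hk2 lay at 21.1, Pfkp at 59.2 and Pfkl at 82.7. Neighbours in this order from Gpi1 to Pgk1 differed by less than the spread of their replicate series, such as 5.85 to 9.39 h for Gpi1 and 6.60 to 14.1 h for Pgk1. The rate is a share of the RNA present, so a half-life stands for decay alone only where the level of the gene stays the same. The level of Ldha fell over the chase, and its half-life was not corrected for this. The half-life of Pgk1 rests on reads that nearly all fit elsewhere as well.

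In STM2457 the half-life was longer for 4 of the 9 genes and shorter for 5. Hk2 had 2.84 h, Pfkp 5.48 h, Pfkl 6.92 h and Gpi1 8.06 h, all above their DMSO values, and Tpi1 with 6.19 h, Ldha with 6.41 h, Aldoa with 6.45 h, Pkm with 7.89 h and Pgk1 with 8.13 h all lay below them. The series of 4 replicates overlapped between the treatments for all 9, and among 5772 transcripts with every series fitted only 1.73% were shorter and 2.62% longer in STM2457 without overlap. The directions also depended on the fit: with a straight line through the log rates only Hk2 was longer in STM2457, at a log2 ratio of 0.49, while Gpi1 at −0.27, Pfkl at −0.11 and Pfkp at −0.39 turned. Gpi1 also turned, to −0.02, without STM2457 replicate 2. Over all 7408 transcripts the median in STM2457 was 3.45 h, and 56.7% were longer there than in DMSO. With the straight line the medians were 2.52 h in STM2457 and 2.59 h in DMSO, but over the 5132 transcripts which that fit kept. A limma test on the log2 half-lives of the replicate series, with a threshold of 0.05 for the adjusted p, called 0% of 5772 mRNAs, of which 405 had an unadjusted p under 0.05, and none of the 9 genes had one. For Aldoa the difference was −0.43 ± 0.23 on the log2 scale (adjusted p = 0.752) and for Pfkl 0.53 ± 0.37 (adjusted p = 0.814).

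**Figure D5:**
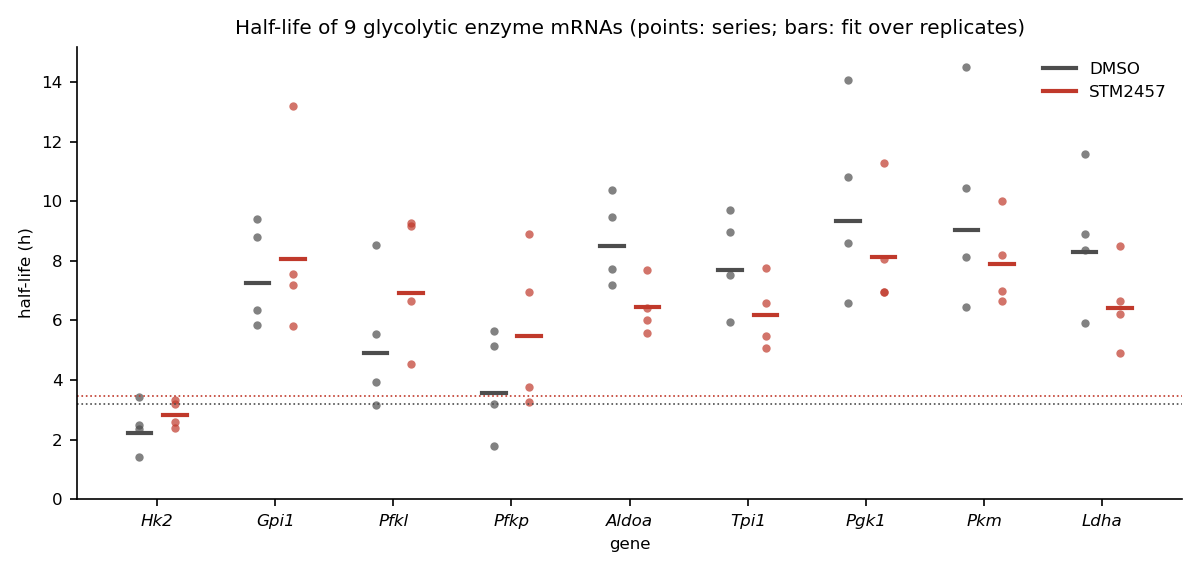
Half-life in hours of the 9 glycolytic enzyme mRNAs with a fit, for DMSO in grey and STM2457 in red, with points for the 4 replicate series and bars for the fit over all replicates, and dotted lines at the medians of all kept transcripts, 3.19 and 3.45 h. Hk2 has the shortest bars, 2.24 and 2.84 h, and the points of both treatments overlap for every gene.

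The label kept late in the chase was also compared without a half-life. Here limma was applied to log2(rate in percent + 0.05), and the mean of 5.3, 8 and 12 h relative to 0 h was compared between the treatments over the 8274 genes with a mean T coverage above 1000. It called 0.641% of genes and none of 9 of the 10, Eno1 lying below the coverage, and 2 of the 9, Hk2 and Aldoa, had an unadjusted p under 0.05. Aldoa kept less label in STM2457, at −0.53 ± 0.15 (adjusted p = 0.0906), and Hk2 had 0.97 ± 0.45 (adjusted p = 0.435). A logistic model of converted and unconverted positions, which calls 0.894% of genes, did call Aldoa, at −0.47 ± 0.11 (adjusted p = 0.026).

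The rates at 12 h alone were set side by side next. The rate of Aldoa was 0.530%, 0.437%, 0.485% and 0.493% in DMSO and 0.250%, 0.226%, 0.191% and 0.253% in STM2457, and the treatments were far apart. That of Pkm was 0.543%, 0.404%, 0.468% and 0.560% in DMSO and 0.324%, 0.306%, 0.257% and 0.306% in STM2457, also without overlap. Relative to 0 h, Aldoa fell by 1.13 ± 0.19 more on the log2 scale in STM2457 (adjusted p = 9.4e-05) and Pkm by 0.74 ± 0.17 more (adjusted p = 0.00785), in a test that calls 2.41% of genes. Hk2 had the next largest difference after Aldoa, in the other direction, at 1.01 ± 0.55 (adjusted p = 0.502), and it was not called. Tpi1 with −0.83 (adjusted p = 0.323), Ldha with −0.62 (adjusted p = 0.322), Pgk1 with −0.54 (adjusted p = 0.441), Gpi1 with −0.27, Pfkl with −0.05 and Pfkp with −0.01 were not called either.

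Of all 8274 genes, 4.7% had 12 h rates in STM2457 below all those in DMSO, and 115 genes had them above. The overall rate of the libraries at 12 h was itself lower in STM2457, at 0.223% against 0.279%, so the tests were repeated with each rate divided by the overall rate of its library. At 12 h alone, an alternative chosen after the data had been seen, Aldoa then stood at −0.74 ± 0.15 (adjusted p = 0.00261) and remained called, while Pkm at −0.36 ± 0.16 (adjusted p = 0.288) did not. The division moved the median of all genes from −0.03 to 0.36 and the calls from 37 higher and 162 lower to 138 higher and 47 lower, which is 2.24% of genes, and Gpi1, Pfkl and Pfkp changed sign without being called. Over 5.3, 8 and 12 h together it put Aldoa at −0.40 ± 0.13 (adjusted p = 0.109), with 0.846% of genes called, 64 higher and 6 lower in place of 37 and 16.

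As a share of the 0 h rate, the label left at 12 h was 34.3% in DMSO and 13.5% in STM2457 for Aldoa, 38.1% and 20.9% for Pkm, 26.4% and 15.0% for Ldha, 28.2% and 13.6% for Tpi1, 38.5% and 25.7% for Pgk1, and 30.8% and 25.9% for Gpi1. It was 19.6% and 18.3% for Pfkl, 7.71% and 6.40% for Pfkp, and −0.06% and 6.37% for Hk2, whose DMSO rate had reached the background. Aldoa held 54.7% and 53.6% at 5.3 h and 50.9% and 36.8% at 8 h.

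Mettl3 methylates adenosine within the short motif GGAC followed by A, C or T. In the longest protein-coding transcript of each gene in GENCODE, these letters were rarest in Aldoa, with 1 copy or 0.646 per kb, at percentile 1.0 of 12230 genes with a median of 3.665 per kb. Eno1 had 1.97, Ldha 2.20, Tpi1 3.11 and Pgk1 3.29 per kb. Pfkp with 3.86, Pfkl with 4.83, Hk2 with 4.90, Gpi1 with 5.55 and Pkm with 5.76 per kb lay above the median. By number Pkm held 14 and Hk2 27. A match is a description of the letters and not of a methylated site.

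Of 18 other glycolytic enzymes and isoenzymes 12 had enough reads, and 2 rose in STM2457 over the chase, Aldoc, the brain-type aldolase, by 0.65 and Hk1, the constitutive hexokinase, by 0.29, while none fell, which is no more than the 26.5% of all genes called there. The median of the 12 was 0.13. Aldoc was called under all 16 alternatives, and Hk1 in 11 of them, not without DMSO replicate 1 or 2, STM2457 replicate 1 or 2, or the 1, 1.5 and 5.3 h libraries (0.22 to 0.33 over all 16). Gapdh, which oxidises the triose, had 0.20 ± 0.08 (adjusted p = 0.0353) and Pgam1, the mutase, 0.06, and the reads of both were nearly all multimapping, at 99.9% and 95.9%. Eno2 at −0.24, on 0 to 24 reads per library, Pfkm at 0.03 and Ldhb at −0.01 were not called either. From 0 h to 12 h only Eno3, the muscle enolase, was called, at 1.08 in DMSO, and it lost its call in 8 of 15 alternatives, 5 of them with a replicate left out (0.80 to 1.32 over all 15). With the GC slope as a covariate, Aldoc was at 0.50 and Hk1 at 0.29 over the chase, Bpgm, named after its values had been seen, was called higher as well, and Gapdh at −0.70 and Pgam1 at −0.38 were called lower from 0 h to 12 h in DMSO.

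Among 18 tested genes of flux control and transport, 3 rose in STM2457 over the chase and none fell: Slc16a1, the monocarboxylate transporter that carries lactate, by 0.24, Slc2a3, a neuronal-type glucose transporter, by 0.21 and Tigar, a fructose bisphosphatase, by 0.18. That is again no more than the 26.5% of all genes. With the GC slope as a covariate, Slc16a1 at 0.36 and Slc2a3 at 0.21 stayed called, Tigar at 0.15 (adjusted p = 0.0105) did not, and 1 gene, Pdhb, named after the values had been seen, was called lower. Tigar lost its call in 5 of 16 alternatives, 3 of them with a replicate left out, and Slc16a1 in 1 of 16, without STM2457 replicate 2. Slc2a3 was at 266 ± 20.4 CPM in DMSO and 357 ± 13.4 CPM in STM2457 at 12 h. Slc2a1, the widely expressed glucose transporter, had 0.03, Slc16a3, a lactate exporter, 0.21 and Pdk1, the kinase that holds back pyruvate dehydrogenase, −0.07, all not called. From 0 h to 12 h Pdk1 rose by 0.71 in STM2457, and by 0.78 with the covariate, and was not called without STM2457 replicate 1, 2 or 4. Fbp1, the gluconeogenic bisphosphatase, fell in DMSO, from 3 to 31 reads per library to 0 to 2, but lost its call in 7 of 14 alternatives, which were the covariate, library totals, the replicate block (adjusted p = 0.0111) and DMSO replicate 1, 2 or 3 or STM2457 replicate 2 left out. With s4U in DMSO, Pdk1 fell by 0.84 and Slc16a3 by 1.43. Pdk1 was not called once any 1 DMSO replicate was left out or only the groups compared were fitted, nor Slc16a3 without DMSO replicate 1, 2 or 3.

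Of the 17 tested genes of the hypoxia-inducible list, 4 rose over the chase in STM2457 and 3 fell. Egln3, a prolyl hydroxylase that marks the factors for decay, rose by 0.56, Mxi1 by 0.45, Ndrg1 by 0.41 and Bnip3, a mitophagy receptor, by 0.35. Ddit4, an inhibitor of mTORC1, fell by 0.39, Arnt, the constant partner of the factors, by 0.21, and Hif1a, the oxygen-regulated one, by 0.19. All 7 were called in the same direction with the GC slope as a covariate, but Egln3 was not called without DMSO replicate 4 or without the 1, 1.5 and 5.3 h libraries, nor Mxi1 without STM2457 replicate 4. The covariate also brought 2 calls of higher levels, Kdm3a over the chase and Ankrd37 from 0 h to 12 h in DMSO, both named after their values had been seen. From 0 h to 12 h without the covariate only Ddit4 was called, and it rose by 1.07 in DMSO and by 0.47 in STM2457. The median of the 17 genes was 0.35 in DMSO. Ldha and Pgk1, which are known targets of the same factors, lay at −0.97 and −0.44 in DMSO. They are named here because they were the 2 members called lower there, and the median of the 10 members was −0.035. With the covariate Ldha and Pgk1 stood at −0.48 and −0.19, and Pgk1 was not called. Activity of the factors was not tested. The STM2457 call of Ddit4 was lost in 6 of 15 alternatives, among them any 1 STM2457 replicate left out (0.32 to 0.59 over all 15). The counts of this list stand beside the 26.5% of all genes called in the mean over the chase, and the lists and members were chosen with results of these data known.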

How the data were processed

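Total RNA of male mESC was profiled by SLAM-seq in 71 libraries. Mapping and counting were done by the authors with SLAM-DUNK in 3′ end windows, which were summed by gene. For each library they deposited raw counts per gene: reads, multimapping reads, T positions covered by reads, and conversions of T to C. The deposited conversion rate is a fraction, the conversions over the covered T positions, with no background subtracted, and a deposited CPM column, scaled to the counted reads, was not used. Per the labels, the submitters' processing notes name FastQC 0.11.8. Chase times were taken from the sampling scheme of the study, and groups and replicate numbers from the sample labels.

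Read counts of 12659 genes kept by filterByExpr were tested with edgeR 4.0.16 in R 4.3.3 (quasi-likelihood test, TMM, 1 mean for each of the 18 groups, Benjamini-Hochberg adjustment over all genes, adjusted p under 0.01). DESeq2 1.42.0 served as an alternative. Half-lives and label kept were computed with Python 3.11.15, pandas 2.3.3, numpy 2.4.6 and scipy 1.17.1, and tested with limma 3.58.1 at an adjusted p under 0.05. STM2457 series 4 had no 3.5 h library. Scripts were tested on simulated data. Reads carry no molecular identifiers as far as stated, so errors were taken from replicates. None of the 105 pairs of replicates held identical values.

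The members, the gene lists (other glycolytic enzymes, flux control and transport, pentose phosphate pathway, hypoxia-inducible genes, and markers of pluripotency, primitive endoderm, primed epiblast and mesoderm, fibroblasts and trophoblast) and the tests were chosen with earlier results of these data known. All 10 members were named. Of the lists, 11 genes were named in any case and others where called in the mean over the chase or over 12 h, by size of change, and so were the genes most like the mean of the members, of which 4 are given. Some items are not reported here. Alternatives were library totals, no filter, reads mapping to 1 place, only the groups compared, the replicate block, each replicate left out, other half-life fits and other settings of label kept. The library GC slope as a covariate and the mean without 1, 1.5 and 5.3 h were added after the data had been seen.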

Additional observations from a re-analysis of the deposited data

Results flagged for a closer look

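Of 188 sets of 4 values, the read levels of the members in single groups and their half-life series, 9 held a library far from the others by Dixon's test at the 95% level, which chance passes in about 1 of 20 such sets. Pfkl was at 173.0 CPM in STM2457 replicate 1 without s4U, with the others at 149 to 152 CPM, and at 168.0 CPM in STM2457 replicate 1 at 5.3 h, with the others at 132 to 136 CPM. Tpi1 was at 165.3 CPM in STM2457 replicate 2 at 12 h, below 220 to 222 CPM in the others. Pgk1 was at 232.8 CPM in DMSO replicate 1 at 1 h, below 330 to 345 CPM, and at 298.8 CPM in DMSO replicate 4 at 1.5 h, above 269 to 271 CPM. Eno1 was at 22.09 CPM in STM2457 replicate 4 at 0 h, above 14.3 to 14.6 CPM, which enters its fall from 0 h to 12 h. Pkm was at 1272 CPM in DMSO replicate 3 at 8 h, below 1466 to 1505 CPM. Ldha was at 1187 CPM in DMSO replicate 4 without s4U, above 779 to 831 CPM, and at 273.7 CPM in DMSO replicate 4 at 12 h, below 371 to 379 CPM.

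The change from 0 h to 12 h of Pgd, the phosphogluconate dehydrogenase of the pentose phosphate pathway, differed between the treatments by 0.72 on the log2 scale in the interaction test of edgeR. It lost this call in 6 of 15 alternatives, each with a replicate left out (DMSO replicates 1, 3 and 4 and STM2457 replicates 1, 2 and 3), with values from 0.68 to 0.90 over all 15. Pgd was at 219 ± 15.4 CPM (SD, n = 4) at 0 h and 206 ± 13.7 CPM at 12 h in DMSO, and at 208 ± 11.6 and 323 ± 9.60 CPM in STM2457.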

How the results depend on the processing

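Over all results and alternatives, most of them never called, 5252 kept direction and side of the threshold, 104 lost and 59 gained a call, 79 moved and 1 reversed, which was Aldoa from 0 h to 12 h in DMSO with the GC slope, at −0.41. Members called in the mean over the chase went from 2 to 1 with library totals, 1 with the GC slope and 0 without 1, 1.5 and 5.3 h, and to 1 to 4 with a replicate left out. Single conditions had 3, or 6 with only the groups compared and 2 to 7 with a replicate left out. From 0 h to 12 h, DMSO had 2, or 1 with library totals or with reads mapping to 1 place and 1 to 3 with a replicate left out, and STM2457 had 2, or 1 with reads mapping to 1 place and 0 to 3. The interaction had 0, or 1 with the GC slope. Labelling in DMSO had 1, or 0 with only the groups compared, 2 with the GC slope and 0 to 1 with a replicate left out, and in STM2457 1, or 2 with the GC slope and 0 to 1. Label kept had 0, or 1 with the logistic model 2 at 12 h alone and 1, Aldoa, at 12 h alone with rates divided by the overall rate. Longer half-lives in STM2457 went from 4 to 1, Hk2, with a straight line through log rates.

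Ldha was called under all alternatives at 5.3 h and from 0 h to 12 h in DMSO, in 15 of 16 for the mean over the chase (−0.37 to −0.15), and from 0 h to 12 h in STM2457 in 13 of 15, lost without STM2457 replicate 1 or 2. Aldoa was called in 7 of 16 for the mean (0.06 to 0.29), Pkm at 1.5 h in 7 of 15, Pgk1 from 0 h to 12 h in DMSO in 10 of 14, Eno1 in STM2457 in 9 of 15, and Tpi1 with labelling in 10 of 15 in DMSO and 13 of 15 in STM2457. Genes called moved by over 1.5 times: the mean over the chase from 3357 to 2035 without the 3 times, STM2457 over the chase from 598 to 956 with only the groups compared, 1001 with the GC slope and 217 to 704 with a replicate left out, the interaction from 140 to 268 with the GC slope and 87 to 112, labelling in DMSO from 65 to 112 with DESeq2, 14 with only the groups compared, 210 with the GC slope and 20 to 73, labelling in STM2457 from 66 to 125 with DESeq2, 192 with the GC slope and 12 to 76, label kept from 53 to 14 with a pseudocount of 0.2%, 28 at a T coverage above 100, 199 at 12 h alone, 185 at 12 h alone with rates divided by the overall rate and 15 to 36, single conditions from 3680 to 2138 to 4829, and 12 h over 0 h in DMSO from 1651 to 1008 to 1725 with a replicate left out. The causes were not tested.

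The replicate numbers were not taken to pair the treatments: the mean correlation of same-numbered deviations of read levels was 0.039 over 35 pairs, the lowest −0.253 at 1 h, and 0.011 for half-life series. At 0 h, however, it was 0.201 with a lowest of 0.121, and the overall conversion rates of 31 same-numbered labelled pairs correlated at 0.68. The replicate block called 3375 genes in the mean over the chase. It raised the members called in single conditions from 3 to 4, by Pfkl at 1.5 h (0.76, adjusted p = 0.00888), and from 0 h to 12 h in STM2457 from 2 to 3, by Tpi1 (0.44, adjusted p = 0.00744), which DESeq2 also called. Where it was run, it changed no other count of members. For label kept it was run in the main setting, and not at 12 h alone or with the logistic model. Depth limits Eno1, with a median of 64 reads, most.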

Other observations

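Of the 7 genes of the pentose phosphate pathway, which branches from glucose 6-phosphate, Pgd rose by 0.16 in STM2457 over the chase (edgeR, adjusted p under 0.01) and no other was called, where 26.5% of all genes were. With the GC slope as a covariate Pgd was at 0.09 (adjusted p = 0.0395), and Pgls was called lower, at −0.23. The covariate also called Pgd lower in DMSO from 0 h to 12 h and with s4U, and Tkt lower with s4U in STM2457. Pgd also lost this call without DMSO replicate 4 and without STM2457 replicate 3. From 0 h to 12 h Pgls, the lactonase, rose by 0.55 in DMSO, a call lost with the covariate (0.20, adjusted p = 0.132) and without DMSO replicate 4, and Pgd rose by 0.64 in STM2457 under all 15 alternatives. With s4U in STM2457, Pgd fell by 0.65, a call lost without STM2457 replicate 1 or 2. Ddit4 rose with s4U by 0.67 in DMSO, not called with only the groups compared or without DMSO replicate 2, 3 or 4, and by 0.89 in STM2457, the other 16 tested genes of the hypoxia-inducible list not being called there, although Bnip3 was called lower in DMSO with the covariate.

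The following calls in marker lists, named after their values had been seen, stand beside 26.5% of all genes called over the chase and 13% and 4.72% called from 0 h to 12 h in DMSO and STM2457. Among them, 5 of 8 tested pluripotency genes rose in STM2457 over the chase, Esrrb, Nanog, Tbx3, Tfcp2l1 and Zfp42, and Dppa3 fell, a call lost with the GC slope as a covariate. From 0 h to 12 h Nanog, Pou5f1, Tbx3 and Zfp42 fell in DMSO, of which Nanog and Tbx3 were not called with the covariate, and in STM2457 Pou5f1 fell and Tfcp2l1 rose. Of 6 primed epiblast and mesoderm genes, which summed to 13.9 to 113 CPM, brachyury fell over the chase in STM2457, and Otx2 and Pou3f1 fell from 0 h to 12 h in both treatments, and with the covariate Pou3f1 was called higher over the chase. Of 4 tested trophoblast genes, which summed to 85.3 to 163 CPM, Tfap2c rose in STM2457 over the chase, and from 0 h to 12 h in DMSO Tfap2c rose and Cdx2 fell. With the covariate only the rise of Tfap2c from 0 h to 12 h was called in these comparisons. The 1 tested primitive endoderm gene and the 2 tested fibroblast genes were not called in any of these comparisons. What part these cells or states have in the levels of the glycolytic genes was not tested.

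Genes whose mean levels over the 18 groups were among the most like the mean of the 10 members, among 8224 genes outside the lists, were Fstl1 with a Pearson correlation of 0.877, Rspry1 with 0.871, Anp32a with 0.854 and Tomm34 with 0.853. The groups share libraries, depth and the spread along GC content.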
